A study of Saccharomyces cerevisiae with 12 samples.

Results

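The mitochondrial ribosomal protein genes of Saccharomyces cerevisiae were taken by name: every gene whose standard name in the R64 annotation begins with MRPL, MRPS, MRP or RSM followed by a digit. The rule found 67 genes among the 7126 gene entries that the 2 deposited tables share, and all 67 were listed in both tables. By the family names in RefSeq, 27 encode proteins of the small subunit (37S) and 38 proteins of the large subunit (54S) of the mitochondrial ribosome, 41 have bacterial counterparts and 24 are specific to mitochondria. MRP8 and RSM22 carry names of the set without a ribosomal family name. RefSeq lists MRP8 as a hypothetical protein and RSM22 as a predicted RNA methyltransferase of the small subunit.

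RNA was sequenced from BY4742, a haploid laboratory strain of mating type alpha, with 3 libraries in each of 4 groups: early NaHS, early control, late NaHS and late control. The salt NaHS is a donor of hydrogen sulfide, and the control cultures received none. Early treatment was given before 72 h after inoculation in synthetic dextrose complete medium and late treatment after it, and the series asks whether the late one lengthens chronological lifespan, the survival of cells that no longer divide. Neither the dose nor the age of the cells at harvest is stated in the labels. All 4 groups share the auxotrophic deletions of the strain, and LEU2, LYS2 and URA3 were listed at 0 in all 12 libraries. HIS3, of which the strain carries a partial deletion, was not at 0: it read 315, 304 and 316 TPM with early NaHS, against 301, 343 and 345 TPM in early controls. Late it fell, with 119.6, 115 and 130.3 FPKM with NaHS, against 378, 522 and 385 FPKM in controls (log2 change -1.79, limma adjusted p = 0.00169). Whether the 3 libraries were grown as separate cultures is not stated either, so p-values measure only the spread between these libraries.

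Mitochondria keep a ribosome of their own that makes a handful of hydrophobic subunits of the respiratory chain and of the ATP synthase, together with one of its own proteins. Nearly all of its proteins are encoded in the nucleus, made in the cytosol and imported. In yeast many of the mRNAs carry, after the stop codon, the binding sequence of Puf3, an RNA-binding protein that promotes decay of its targets during growth on glucose and their translation when cells respire.

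The sequence TGTANATA, known as the core of the Puf3 site, was present on the sense strand within 300 bases after the stop codon of 65 of the 67 genes (97.0%, Wilson 95% interval 89.8% to 99.2%). It was present after 972 of 6002 nuclear protein-coding genes (16.2%). On the opposite strand it was found after 15 of the 67 (22.4%) and after 15.8% of all genes. The 2 genes without a match were MRP8 and RSM22, those without a ribosomal family name. MRPL33 holds a second match, 165 bases after the stop codon, that is not shown. The other matches are shown for genes that the comparisons below turn on, from the RefSeq R64 genome. They are written as DNA on the strand of the gene with the 8 matched bases in capitals.
RSM18 (chrV:253886-253915, minus strand, 67 bases after the stop codon): atagttctgtcTGTAAATAtacaatatgta
MRPL24, first of a pair (chrXIII:650856-650885, plus strand, 55 bases after the stop codon): tggttttccccTGTATATAaaaaagcatat
MRPL24, second of the pair (chrXIII:650880-650909, plus strand, 79 bases after the stop codon): gcatatctgttTGTACATAtgtaggtatgc
MRPL33 (chrXIII:842249-842278, plus strand, 58 bases after the stop codon): tgacttatataTGTATATAgtattattttt
RSM7 (chrX:638192-638221, minus strand, 22 bases after the stop codon): gtaaacttgccTGTACATAaacacatttat
MRP4 (chrVIII:100429-100458, plus strand, 37 bases after the stop codon): taacctaaactTGTACATAtgcccatatat
MRPL25 (chrVII:637008-637037, minus strand, 78 bases after the stop codon): atgtctaatcaTGTAAATAattttgtgata
MRPL35 (chrIV:1111710-1111739, plus strand, 29 bases after the stop codon): ttatagtatccTGTACATAtaaaataacgt
MRP49 (chrXI:133678-133707, minus strand, 25 bases after the stop codon): aagtttgttcaTGTATATAtcaaaaaacat
MRPS35 (chrVII:830212-830241, plus strand, 70 bases after the stop codon): ccattattactTGTACATAaaatattctac

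RSM18, MRPL24 and MRPL33 rose and RSM7 and MRP4 fell in early cultures, while the last 4 rose in late cultures. Since 65 of the 67 genes carry the core, its presence cannot separate risers from fallers within the set. In all, the 67 genes held 82 matches: 36 were TGTAAATA, 26 TGTATATA, 18 TGTACATA and 2 TGTAGATA. The matches began a median of 56 bases after the stop codon, between 8 and 266 bases, and 15 genes held 2 or more. A C stood 2 bases before the match in 52 of the 82 (63.4%), as in RSM7, MRPL35 and the first site of MRPL24, against 233 of 980 matches (23.8%) after other genes. These shares describe letters in the genome, and binding was not measured.

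Related genes that the name rule leaves out shared the feature unevenly. It was found after all 13 mitochondrial ribosomal protein genes with other names, 15 of 16 genes for mitochondrial tRNA synthetases and their partners (93.8%), 15 of 19 for translational activators (78.9%) and 7 of 9 for translation factors (77.8%). It was found after 12 of 138 genes for cytosolic ribosomal proteins (8.70%) and 6 of 56 for ribosome assembly factors (10.7%). Before the start codon, letters common in promoters of genes for the cytosolic ribosome assembly machinery showed no such excess. GATGAG, on either strand within 300 bases, was found before 12 of the 67 (17.9%) and 19.1% of all genes, and AATTTT before 27 (40.3%) and 54.1%. A match to GATGAG and a match to AATTTT share no base. Copies of GATGAG can overlap only on the same strand, and copies of AATTTT only on opposite strands.

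**Figure D1:**
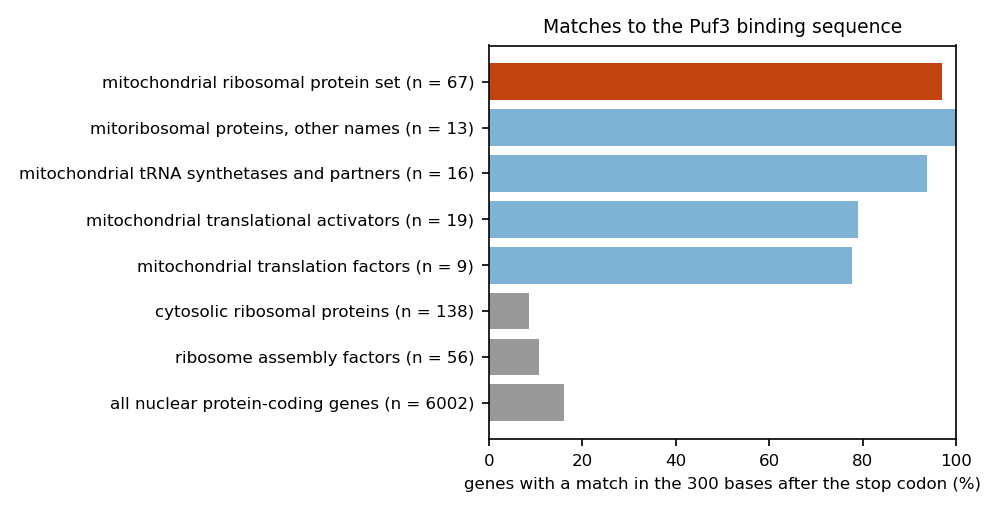
Share of genes with TGTANATA on the sense strand within 300 bases after the stop codon (bars, in percent, with the number of genes in brackets). The set of 67 stands at 97.0%, other lists of the mitochondrial translation system lie at 77.8% or above, and cytosolic ribosomal protein genes lie at 8.70%, below the 16.2% of all nuclear protein-coding genes.

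Levels were deposited as TPM (transcript abundance scaled by gene length to a fixed total) for the early stage and as FPKM (fragment abundance per gene length and per library) for the late stage, and the stages were normalized apart, so a level in one table is not set against the other. In early cultures the 67 genes spanned group means of 4.50 to 936 TPM with NaHS and 3.09 to 1651 TPM in controls, with medians of 71.97 and 70.5 TPM. The median of all genes with a mean of at least 1 was 19.9 TPM with NaHS and 24.4 TPM in controls. MRPS12 (uS12m), a protein of the decoding centre, had the highest level of the set in both tables. RSM19 (uS19m), a protein of the small-subunit head, came next by its mean over the 6 early libraries and lies beside MRPS12 on chromosome XIV on the same strand, 229 bases away. RSM19 read 513, 445 and 240.4 TPM in early NaHS libraries 1 to 3, against 499, 493 and 437 TPM in early controls. In the late table it read 702, 686 and 549.9 FPKM with NaHS, against 616, 847 and 536 FPKM in controls. The groups overlapped at both stages, and RSM19 passed neither test.

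MRP8 and MRPL37 shared the upper ranks. MRP8 read 388, 395 and 608 TPM in early NaHS libraries, against 368, 372 and 341 TPM in early controls, and 72.02, 91.1 and 60.4 FPKM in late NaHS libraries, against 85.2, 83.8 and 96.5 FPKM in late controls. MRPL37 (mL54) read 609, 731 and 569 FPKM with late NaHS, against 412, 669 and 414 FPKM in late controls. MRP8 was higher in every early NaHS library and MRPL37 overlapped between the late groups, and neither gene passed a test. The lowest early levels were those of RSM22, MRPL11 (uL10m) and MRP13 (mS44). MRPL11 read 10.6, 10.7 and 3.69 TPM with early NaHS, against 12.8, 9.73 and 13.2 TPM in controls, and MRP13 read 10.3, 9.51 and 3.04 TPM with early NaHS, against 15.2, 11.9 and 11.8 TPM in controls. The third NaHS library was the lowest for both, and neither passed.

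MRPL17 (mL46), MRPL22 (uL22m), RSM22 and RSM23 (mS29) were listed at 0 in all 6 late libraries, as were 777 of 6007 protein-coding entries of the late table. In the early table none of the 67 had a 0, and RSM23 read 41.3, 37.2 and 34.5 TPM with NaHS, against 35.6, 33.4 and 37.8 TPM in controls. MRPL17 read 28.4, 29.2 and 16.6 TPM with early NaHS, against 28.99, 28.6 and 29.1 TPM in controls, and MRPL22 read 21.99, 22.01 and 16.9 TPM with early NaHS, against 18.4, 21.6 and 21.5 TPM in controls. Since a 0 can be a failed estimate in a table without counts, these 4 genes are only said to be listed at 0 late. The late tests therefore cover 63 of the 67.

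Libraries did not all lie close to their group. Over all genes tested, early NaHS library 3 lay a median absolute log2 distance of 0.384 and 0.390 from the other early NaHS libraries, which lay 0.126 apart. Late control 2 lay 0.341 and 0.450 from the other late controls, which lay 0.264 apart. Within the set, early NaHS library 3 stood apart. Its median log2 difference from the early control mean over the 67 genes was -0.41, with 51 below that mean. In NaHS libraries 1 and 2 it was -0.0088 and -0.0055, with 34 below in each. The median over all genes tested was -0.20, -0.20 and -0.28 in NaHS libraries 1 to 3, so all 3 lay below the control mean across genes. Entries for ribosomal RNA took 1.70%, 1.44% and 3.20% of the early NaHS table totals, against 0.872%, 1.18% and 0.757% of the early control totals. In the late table they took 0.328%, 0.312% and 0.259% with NaHS, against 0.267%, 0.959% and 3.60% in controls. The part of these differences in the results was not tested. The 67 genes held 0.856%, 0.838% and 0.673% of the TPM in early NaHS libraries, against 0.917%, 0.907% and 0.847% in early controls. They held 0.490%, 0.433% and 0.328% of the FPKM in late NaHS libraries, against 0.342%, 0.341% and 0.321% in late controls. Early, every NaHS library but the first lay below all controls; late, the third NaHS library lay among the controls.

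**Figure D2:**
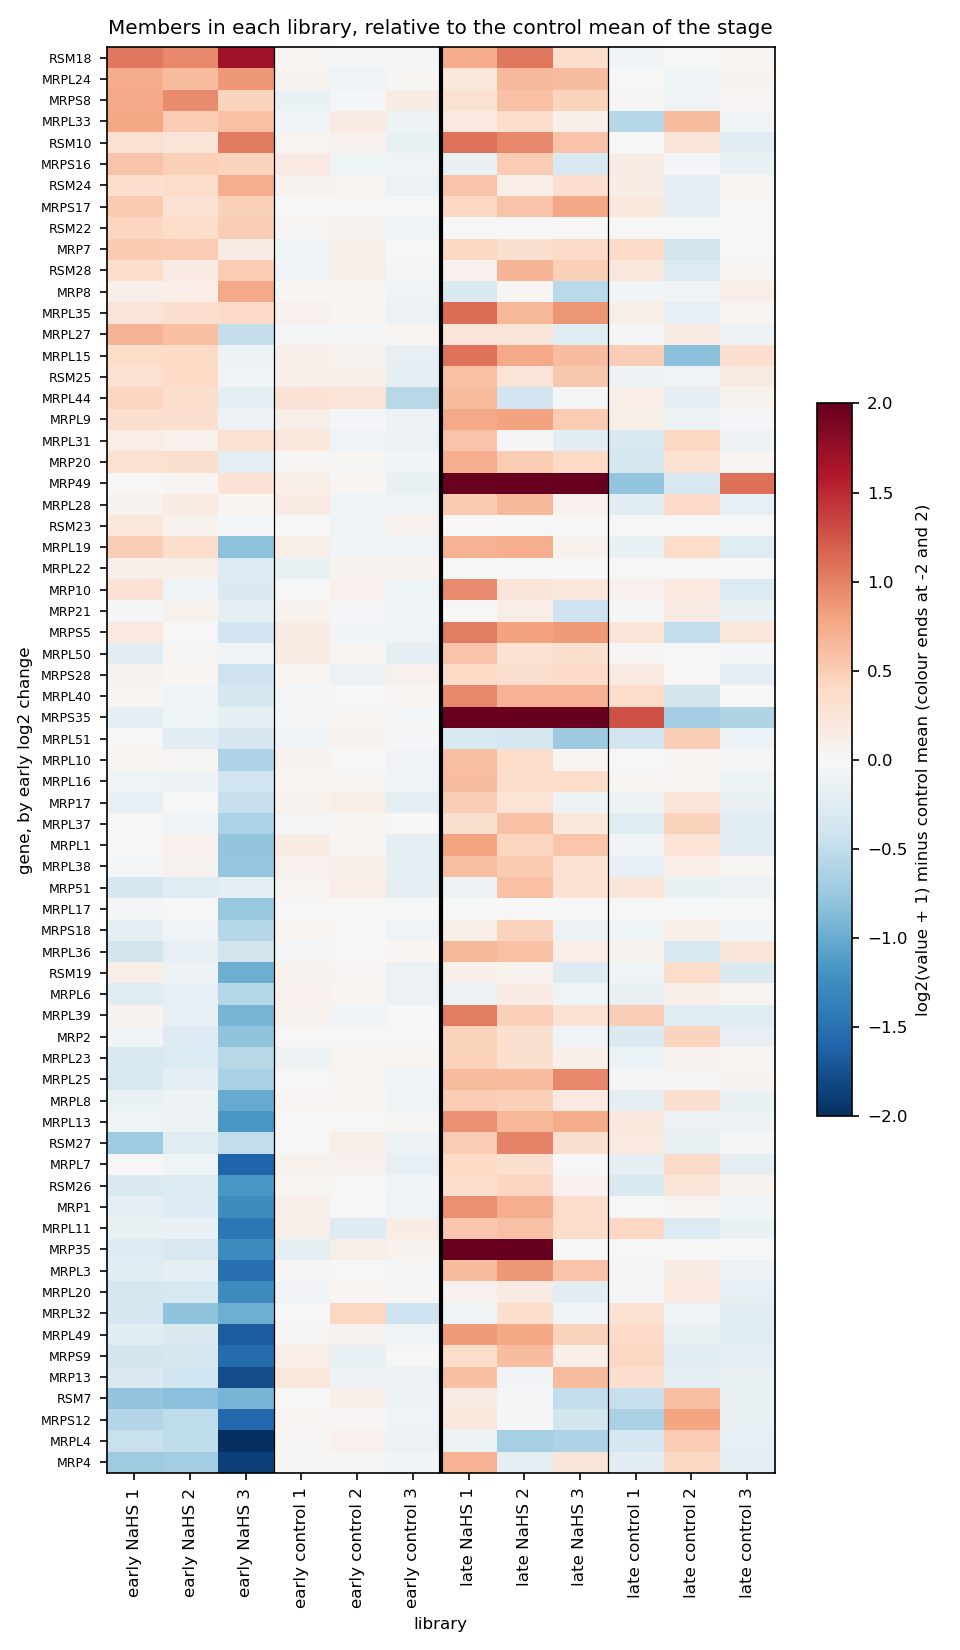
Heat map of the 67 genes (rows, ordered by early log2 change) in the 12 libraries (columns), as log2(value + 1) minus the mean of the 3 controls of the same stage; colours end at -2 and 2. Early NaHS library 3 is below the control mean for 51 genes, most squares of the late NaHS libraries are above it, and MRP49 and MRPS35 reach the end of the scale in every late NaHS library.

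In early cultures NaHS moved single mitochondrial ribosomal protein genes both ways. By limma on log2(TPM + 1), with p adjusted over all 6124 genes tested and a threshold of 0.05, 8 of the 67 rose (background 10.1% of genes), 5 fell (background 28.5%) and 54 did not pass. The share that rose, 11.9%, was near the background, and the share that fell, 7.46%, was below it. The median log2 change was -0.19 over the 67 and -0.24 over all genes tested, and 36 of the 67 showed no overlap between the 3 NaHS and 3 control values (background 58.2%). In bulk libraries, fewer cells that hold an mRNA and less of it per cell cannot be told apart.

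The largest rise was that of RSM18 (YER050C, chromosome V, 253971 to 254387), which encodes bS18m of the small subunit. It read 209, 196 and 326 TPM in NaHS libraries 1 to 3, against 103, 97.95 and 98.8 TPM in controls. Every NaHS library was well above every control, and the third was the highest. RSM18 rose by 1.24 on the log2 scale (SE 0.20, limma adjusted p = 0.0051). MRPL24 (YMR193W, chromosome XIII, 650036 to 650812), which encodes bL28m of the large subunit, read 32.7, 30.2 and 35.6 TPM with NaHS, against 20.04, 17.9 and 19.4 TPM in controls. The NaHS values were tight and all above the controls, and MRPL24 rose by 0.75 on the log2 scale (SE 0.12, limma adjusted p = 0.0041).

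MRPL33 (YMR286W, chromosome XIII, 841942 to 842202), which encodes uL30m, read 305, 254 and 269 TPM with NaHS, against 171, 199 and 166 TPM in controls. The lowest NaHS value lay above the highest control value, and MRPL33 rose by 0.63 on the log2 scale (SE 0.12, limma adjusted p = 0.00983). MRPS8 (YMR158W, chromosome XIII, 572248 to 572715), which encodes uS8m, a protein that binds the central part of the small-subunit RNA in bacteria, read 57.1, 64.9 and 45.9 TPM with NaHS, against 30.3, 32.8 and 37.1 TPM in controls. NaHS library 3 was the nearest to the controls, and the rise was 0.72 on the log2 scale (SE 0.16, limma adjusted p = 0.0151). RSM18, MRPL24 and MRPL33 stayed past the threshold in each of the 14 alternatives run, MRPS8 in 12.

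The other risers were smaller. MRPS16 (bS16m) read 279.97, 265 and 258 TPM with NaHS, against 211, 178 and 179.9 TPM in controls, a change of 0.50 (limma adjusted p = 0.0144). RSM24 (mS35) read 46.4, 47.3 and 60.9 TPM with NaHS, against 38.1, 37.8 and 33.5 TPM in controls, a change of 0.48 (limma adjusted p = 0.0395). Both had all NaHS values above all controls, RSM24 with its highest value in NaHS library 3. MRPS17 (uS17m) read 46.8, 39.7 and 45.1 TPM with NaHS, against 32.3, 31.9 and 32.3 TPM in controls, a change of 0.43 (limma adjusted p = 0.0233). RSM22 (YKL155C, chromosome XI, 159456 to 161342), the predicted methyltransferase, read 4.50, 4.28 and 4.72 TPM with NaHS, against 3.14, 3.28 and 2.84 TPM in controls, a change of 0.43 (limma adjusted p = 0.0353). RSM22 had the lowest level of the set, and its groups still did not overlap.

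The clearest fall was that of RSM7 (YJR113C, chromosome X, 638232 to 638975), which encodes uS7m, the protein that organizes the head of the small subunit in bacteria. It read 298, 289 and 272 TPM with NaHS, against 516, 555 and 482 TPM in controls. The 3 NaHS libraries lay together and far below the controls, and RSM7 changed by -0.85 on the log2 scale (SE 0.10, limma adjusted p = 0.00171). It was the only fallen gene of the set that stayed past the threshold in all 14 alternatives. MRP4 (YHL004W, chromosome VIII, 99219 to 100403), which encodes uS2m, read 59.7, 60.4 and 26.4 TPM with NaHS, against 101, 100.3 and 94.95 TPM in controls. The third NaHS library was the lowest, the other two were also below every control, and MRP4 changed by -1.09 on the log2 scale (SE 0.32, limma adjusted p = 0.0371). MRP4 and the reading frame YHL005C, on the opposite strand, overlap only at their ends (gap of -2 bases), a very small part of the gene.

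MRPS12 (YNR036C, chromosome XIV, 694361 to 694822) read 1096, 1155 and 558 TPM with NaHS, against 1706, 1669 and 1576 TPM in controls. All 3 NaHS libraries were below all controls and the third was the lowest; the change was -0.89 on the log2 scale (SE 0.28, limma adjusted p = 0.048). MRPS12 made up 12.8%, 13.8% and 8.29% of the summed TPM of the set in NaHS libraries, against 18.6%, 18.4% and 18.6% in controls. RSM27 (mS33) read 37.2, 52.2 and 43.5 TPM with NaHS, against 61.4, 67.05 and 57.2 TPM in controls, a change of -0.48 (limma adjusted p = 0.0459). MRPL23 (uL13m) read 103, 105.4 and 86.9 TPM with NaHS, against 119, 133 and 133 TPM in controls, a change of -0.38 (limma adjusted p = 0.0446). Neither overlapped between groups, and both stood just inside the threshold.

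**Figure D3:**
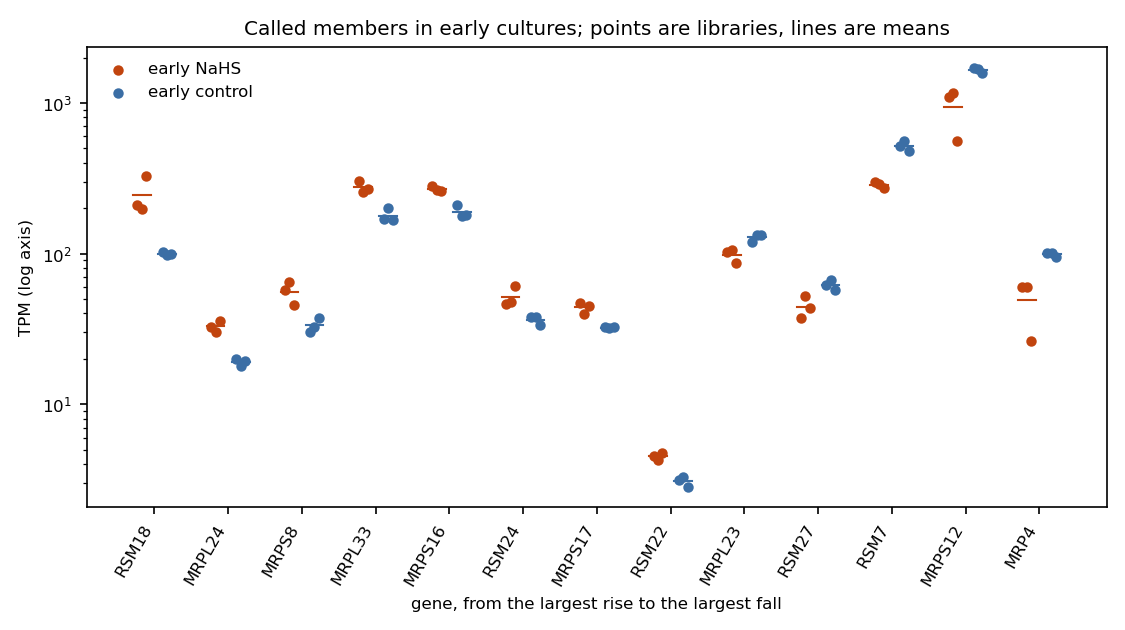
TPM (log axis) of the 13 genes called in early cultures, with points for the 3 NaHS libraries on the left of each pair and the 3 controls on the right, and lines for the means. No gene overlaps between the groups, RSM18 has its highest point in NaHS library 3 at 326 TPM, and MRPS12 and MRP4 have their lowest there at 558 and 26.4 TPM.

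The 54 genes that did not pass had early log2 changes between -1.04 and 0.53. These ends were MRPL4 (uL29m), which lies at the tunnel exit, and RSM10, both named after their values were seen. MRPL4 read 112, 107 and 33.3 TPM with NaHS, against 155, 161 and 141 TPM in controls, and RSM10 read 325, 315 and 539 TPM with NaHS, against 274, 279.8 and 236 TPM in controls. Neither overlapped between groups, but NaHS library 3 was far from the other NaHS libraries in both, low for MRPL4 and high for RSM10 (limma adjusted p = 0.117 and 0.104).

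By subunit, 5 of 27 small-subunit genes rose (18.5%, background 10.1%) and 4 fell (14.8%, background 28.5%). Of 38 large-subunit genes 2 rose (5.26%) and 1 fell (2.63%). The median log2 changes were -0.15 for the small and -0.22 for the large subunit. Of the 41 genes with bacterial counterparts 6 rose (14.6%) and 4 fell (9.76%), and of the 24 specific to mitochondria 1 rose and 1 fell (4.17% each). The summed TPM of the small-subunit genes divided by that of the large-subunit genes was 0.992, 1.01 and 1.09 in NaHS libraries, against 1.18, 1.17 and 1.16 in controls. The NaHS ratios were all below the controls. The small-subunit sums were 4063, 3996 and 3190 TPM with NaHS, against 4746, 4688 and 4354 TPM in controls. Of these, MRPS12 alone held 1096, 1155 and 558 TPM with NaHS, against 1706, 1669 and 1576 TPM in controls. The ratio without this most abundant gene was not computed, so the lower ratio is not read as a result about the small subunit as a whole.

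The early counts depend on library 3 and on the scale. Without NaHS library 3, 17 of the 67 rose and 12 fell, and the 13 genes above were among them. The all-gene counts moved too, with 936 of 6119 genes risen and 2317 fallen in that fit. Without control 1, control 2, control 3 or NaHS library 1, 4, 3, 4 and 4 rose and 1, 1, 1 and 2 fell. In the same fits 324, 296, 329 and 449 of all genes tested rose and 1099, 1093, 1160 and 1469 fell. With median-ratio scaling the all-gene median moved to -0.0098, 14 genes of the set rose and only RSM7 fell. Over all 6120 genes tested, 1067 rose and 1122 fell with this scaling. With upper-quartile scaling the all-gene median moved to 0.081, 19 genes of the set rose and again only RSM7 fell. Over all 6128 genes tested, 1207 rose and 939 fell there. The median of the set, -0.19 as deposited, changed sign under both scalings (0.066 and 0.17), and relative to the median of all genes it stood 0.054, 0.076 and 0.087 higher in the deposited, median-ratio and upper-quartile values.

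In late cultures the set lay mostly above the controls, and the genes that passed the test all rose. Among 63 tested genes 8 rose (background 5.28% of 5344 genes), 0 fell (background 9.99%) and 55 did not pass, so 12.7% rose. At an unadjusted p under 0.05, limma had 24 higher and 0 lower. The share of all genes at that cut was not counted, so the count is not read as a result about the set. The median log2 change was 0.39 over the 63 genes and 0.053 over all genes tested. Above 0 were 55 of the 63, against 2868 of all 5344 genes tested. The lean was not particular to the set. Ribosome assembly factors had 49 of 53 above 0, and mitochondrial ribosomal protein genes with other names 11 of 12. Cytosolic ribosomal protein genes had 98 of 133. No overlap between the NaHS and the control libraries was seen for 27 of the 63 (background 38.6%). The median differences of NaHS libraries 1 to 3 from the control mean were 0.54, 0.47 and 0.28, against -0.0091, 0.014 and -0.104 in controls 1 to 3, so the third NaHS library lay nearest to the controls. Over all genes tested the medians of NaHS libraries 1 to 3 were -0.019, 0.073 and 0.080.

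MRP49 and MRPS35 stood out by values at or near 0 in controls. MRP49 (YKL167C, chromosome XI, 133721 to 134134), which encodes mL61 of the large subunit, read 75.3, 40.3 and 39.3 FPKM in late NaHS libraries 1 to 3, against 0, 0.381 and 2.70 FPKM in late controls. MRPS35 (YGR165W, chromosome VII, 829116 to 830153), which encodes mS45 of the small subunit, read 14.6, 15.8 and 16.1 FPKM with NaHS, against 2.87, 0 and 0.06 FPKM in controls. Each gene was listed at 0 in a control library and above 10 FPKM in every NaHS library. Both passed the test (limma adjusted p = 0.00192 for MRP49 and 0.00824 for MRPS35), but no fold is given since the fitted change depends on the pseudocount. A value at or near 0 can be a failed estimate here too, so both calls are uncertain, also in the comparisons that follow. In early cultures MRP49 read 144, 150 and 177 TPM with NaHS, against 157, 149 and 131 TPM in controls, and MRPS35 read 24.7, 26.4 and 24.7 TPM with NaHS, against 27.5, 29.3 and 27.4 TPM in controls. Neither gene passed the early test or overlaps an annotated neighbour.

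MRP35 (bL35m) had a similar but incomplete pattern, with 15.98, 19.8 and 0 FPKM in late NaHS libraries, against 0, 0 and 0 FPKM in controls. The third NaHS library was at 0 like the controls, and MRP35 did not pass (limma adjusted p = 0.134).

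The 6 other risers had values above 0 in every library. MRPL35 (YDR322W, chromosome IV, 1110589 to 1111692), which encodes mL38 and has been tied to the assembly of cytochrome c oxidase, read 32.1, 23.3 and 27.1 FPKM with NaHS, against 15.5, 12.6 and 14.8 FPKM in controls. The groups were well apart, and MRPL35 rose by 0.89 on the log2 scale (SE 0.18, limma adjusted p = 0.023). RSM10 (YDR041W, chromosome IV, 539803 to 540414), which encodes uS10m and is annotated as essential, read 251, 229.8 and 176 FPKM with NaHS, against 117, 139 and 99.9 FPKM in controls. The third NaHS library was the lowest of the treated ones but above every control, and RSM10 rose by 0.87 on the log2 scale (SE 0.21, limma adjusted p = 0.0361).

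MRPL13 (mL50), annotated as not essential for mitochondrial translation, read 61.6, 51.7 and 54.7 FPKM with NaHS, against 37.9, 29.8 and 30.1 FPKM in controls, and rose by 0.77 on the log2 scale (SE 0.17, limma adjusted p = 0.0285). MRPL25 (YGR076C, chromosome VII, 637104 to 637577), which encodes mL59 and whose loss is known to lengthen replicative lifespan, read 18.1, 18.2 and 23.1 FPKM with NaHS, against 11.1, 11.04 and 11.9 FPKM in controls. MRPL25 rose by 0.74 on the log2 scale (SE 0.17, limma adjusted p = 0.0309). The controls of MRPL25 were within 1 FPKM of each other, whereas the first control of MRPL13 was higher than the other two. MRPL3 (mL44), which lies near the exit of the peptide tunnel, read 119.6, 139.8 and 114 FPKM with NaHS, against 74.3, 85.3 and 70.6 FPKM in controls, and rose by 0.69 on the log2 scale (SE 0.16, limma adjusted p = 0.0349). MRPL9 (uL3m) read 112, 116 and 94.4 FPKM with NaHS, against 72.1, 61.7 and 65.2 FPKM in controls, and rose by 0.69 on the log2 scale (SE 0.16, limma adjusted p = 0.0337). Neither gene overlapped between groups.

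**Figure D4:**
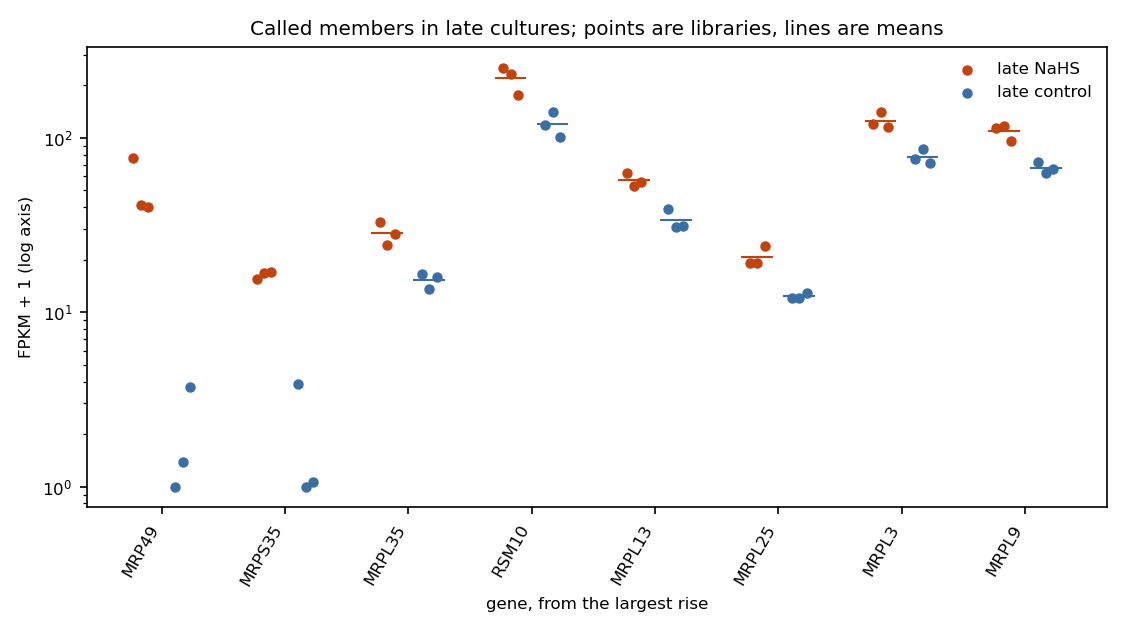
FPKM + 1 (log axis) of the 8 genes called in late cultures, with points for the 3 NaHS libraries on the left of each pair and the 3 controls on the right; lines are means and are left out for MRP49 and MRPS35, which have a 0. MRP49 and MRPS35 span 0 to 2.87 FPKM in controls, and the other 6 genes lie apart by less but without overlap.

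Of the 55 genes that did not pass, those without a 0 had late log2 changes between -0.46 and 0.89, with MRPL51 (mL43) and MRPS5 (uS5m) at the ends, both named after their values were seen. MRPS5 read 20.4, 17.5 and 18.1 FPKM with NaHS, against 11.6, 6.53 and 11.4 FPKM in controls, and stood just outside the threshold (limma adjusted p = 0.054). MRPL51 read 109.7, 106 and 82.3 FPKM with NaHS, against 105.1, 192 and 125 FPKM in controls, and its highest value was that of control 2. MRPS5 did not overlap between groups, whereas MRPL51 did, and MRPL51 overlaps the reading frame YPR099C.

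By subunit, 2 of 26 small-subunit genes (7.69%) and 6 of 36 large-subunit genes (16.7%) rose (background 5.28%), with median log2 changes of 0.37 and 0.45. Of the genes specific to mitochondria 6 of 22 rose, and of those with bacterial counterparts 2 of 40, with medians of 0.44 and 0.38. The sum of the small-subunit genes over that of the large-subunit genes was 1.04, 1.06 and 0.985 in late NaHS libraries, against 1.097, 1.33 and 1.14 in controls. Late control 2 gave the highest ratio and held the highest values of MRPS12 and RSM7. MRPS12 read 984, 827 and 660.2 FPKM with NaHS, against 544, 1475 and 773 FPKM in controls, and RSM7 read 222, 192 and 140.4 FPKM with NaHS, against 143, 301 and 178 FPKM in controls. Both overlapped between late groups and neither passed.

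Across the 60 genes without a 0, the late log2 change was lower at higher levels (r = -0.39, rho = -0.40), while over all genes tested r was -0.045. This is a description over genes that share the libraries and from which the level itself was computed. Coding length showed less (r = 0.21 over the 60 genes, 0.077 over all genes with a coding length).

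The 8 late calls were kept with both pseudocounts, without a filter and under both scalings, which moved the all-gene median to 0.030 and 0.15 and that of the set to 0.37 and 0.50. With 1 library left out, 2 to 7 genes of the set rose, and MRP49 and MRPS35 were the only genes called in every such fit. Without late control 3, NaHS 1, NaHS 2, NaHS 3 or control 2 the count was 2, 2, 3, 4 and 5. Over all genes tested, 123, 142, 134, 128 and 272 rose in those fits.

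Other genes of mitochondrial translation were followed as lists, chosen by role. Over all genes tested, 10.1% rose and 28.5% fell early, and 5.28% rose and 9.99% fell late. These lists are short, so their counts stand beside those shares and are not read as results about a list. Among the 13 mitochondrial ribosomal protein genes with other names, 1 rose and 2 fell early, and 1 of 12 rose late. SWS2, which encodes a small-subunit protein of the bacterial type, was the early riser, with 137, 132 and 107 TPM with NaHS, against 98.5, 85.2 and 90.4 TPM in controls (log2 change 0.44, limma adjusted p = 0.0404). RML2, which encodes a large-subunit protein of the bacterial type, was the late riser, with 98.9, 98.3 and 84.3 FPKM with NaHS, against 54.7, 58.98 and 53.6 FPKM in controls (log2 change 0.74, limma adjusted p = 0.0222). EHD3, an enzyme of valine breakdown also found in the small subunit, and FYV4 fell early, with log2 changes of -0.92 and -0.85 (limma adjusted p = 0.0278 and 0.00648).

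Of 9 translation factors, 1 fell early and 1 of 7 tested rose late. MRF1, the release factor, read 12.2, 11.9 and 7.78 TPM with early NaHS, against 22.2, 19.5 and 20.4 TPM in controls (log2 change -0.92, limma adjusted p = 0.0107). MEF1, the elongation factor that moves the ribosome along the mRNA, read 7.35, 11.8 and 8.86 FPKM with late NaHS, against 4.97, 2.81 and 3.25 FPKM in controls (log2 change 1.15, limma adjusted p = 0.0301). Each of these genes had no overlap between the groups compared. Of 15 tested genes for tRNA synthetases and partners, 1 rose (6.67%, background 10.1%) and 5 fell (33.3%, background 28.5%) early. Of 10 tested late 0 passed (limma, with 2 higher and 3 lower at an unadjusted p under 0.05, a cut at which all genes were not counted). MSD1, the aspartyl-tRNA synthetase, and PET112, a subunit of the glutamyl-tRNA amidotransferase, fell early, with log2 changes of -1.36 and -0.98 (limma adjusted p = 0.00296 and 0.0112), whereas GTF1, another subunit of that enzyme, rose by 0.57 (adjusted p = 0.0338). Both falls were at low levels. MSD1 read 1.18, 2.17 and 1.32 TPM with early NaHS, against 5.83, 4.72 and 6.01 TPM in controls. PET112 read 1.54, 0.68 and 1.58 TPM with early NaHS, against 3.35, 3.5 and 3.33 TPM in controls.

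Among 18 tested translational activators, which each help the translation of one mitochondrial mRNA, 6 rose and 3 fell early. PET111, the activator for COX2, read 33.05, 28.2 and 23.2 TPM with early NaHS, against 8.97, 6.80 and 11.7 TPM in controls (log2 change 1.54, limma adjusted p = 0.00317), and was listed at 0 in all late libraries. AEP3, which acts on the mRNA for ATP synthase subunits, rose at both stages, by 0.56 early and 1.51 late (limma adjusted p = 0.0114 and 0.00236). PET122, an activator for COX3, and CBS2, an activator for COB, fell early, with log2 changes of -1.25 and -0.94 (limma adjusted p = 0.0103 and 0.00564). In late cultures 1 of 15 rose and 1 fell. The one that fell was PET122, which was listed at 0 in all 3 NaHS libraries, against 2.38, 35.5 and 4.63 FPKM in controls (limma adjusted p = 0.0481). A 0 can be a failed estimate, so this fall is uncertain. Of 15 genes for ribosome assembly and the inner membrane, 1 rose early and 1 of 13 rose late, in both cases YLH47, a relative of the membrane protein MDM38 that binds mitochondrial ribosomes, by 0.94 and 0.77 (limma adjusted p = 0.00992 and 0.0273).

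The regulators moved differently from one another. PUF3 read 7.21, 7.92 and 7.12 TPM with early NaHS, against 6.23, 4.64 and 4.86 TPM in controls, and 4.98, 9.28 and 6.69 FPKM with late NaHS, against 7.07, 4.21 and 4.43 FPKM in controls. It did not overlap early but passed neither test (limma adjusted p = 0.0543 and 0.421). CCR4, the deadenylase that shortens tails of mRNAs, fell early, with 31.1, 30.7 and 11.4 TPM with NaHS, against 66.1, 65.8 and 73.5 TPM in controls (log2 change -1.57, limma adjusted p = 0.0188). HAP4, the limiting partner of the HAP complex that activates genes for respiration, read 196, 122 and 202 TPM with early NaHS, against 67.8, 54.4 and 68.9 TPM in controls, a rise of 1.40 (limma adjusted p = 0.00455). Late it rose by 3.47 (limma adjusted p = 0.000545), and HAP4 was the only one of the 5 listed regulators of respiration called at either stage.

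The cytosolic ribosome was set beside the mitochondrial one. Of 136 tested genes for cytosolic ribosomal proteins, 4 rose and 69 fell early, with a median log2 change of -0.56, and 2 rose and 1 fell of 133 late, with a median of 0.13. Ribosome assembly factors had 6 risen and 4 fallen of 46 early (median 0.18) and 2 risen and 0 fallen of 53 late (median 0.46). At an unadjusted p under 0.05, limma had 6 of these higher and 0 lower late, with no all-gene share counted at that cut. The set of 67 thus held a smaller share of early fallers than the cytosolic list, 7.46% against 50.7%, with 28.5% over all genes tested. These shares were not tested against each other. Over all protein-coding genes tested, the 67 included, those with TGTANATA after the stop codon had a median early change of -0.25, against -0.24 for those without. In late cultures the medians were 0.14 with it, against 0.046 without it.

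The difference between stages was tested as the late NaHS effect minus the early NaHS effect in 1 fit of all 12 libraries, each effect taken within its own table. Of 63 genes of the set, 11 had a higher effect late (background 15.2% of 5165 genes) and 0 a lower one (background 7.55%), so the share with a higher effect, 17.5%, was near the background. At an unadjusted p under 0.05, limma had 26 higher and 0 lower, again without a counted share of all genes at that cut. The median difference was 0.58 for the set and 0.25 for all genes tested. No gene of the 67 was called at both stages.

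MRP49 and MRPS35 led the 11, with the values near 0 in late controls given above (limma adjusted p = 0.000379 and 0.00188). MRPL3 followed, with 47.2, 48.3 and 18.7 TPM with early NaHS, against 55.7, 54.9 and 54.2 TPM in early controls, so that its early change of -0.63, which did not pass, stood against a late rise of 0.69. The difference was 1.33 on the log2 scale (SE 0.41, limma adjusted p = 0.0412). MRP1 (mS43) read 63.4, 60.7 and 29.7 TPM with early NaHS, against 78.1, 72.2 and 68.5 TPM in controls, and 104, 91.2 and 70.9 FPKM with late NaHS, against 54.4, 56.8 and 52.6 FPKM in controls. All NaHS values were below the controls early and above them late, and the difference was 1.25 on the log2 scale (SE 0.36, limma adjusted p = 0.0308). MRPL13, with 39.7, 39.3 and 18.3 TPM with early NaHS, against 41.7, 41.8 and 42.8 TPM in controls, differed by 1.21 on the log2 scale (SE 0.36, limma adjusted p = 0.0334).

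MRPL25 differed by 1.13 on the log2 scale (SE 0.22, limma adjusted p = 0.00571), with 23.4, 25.9 and 18.4 TPM with early NaHS, against 29.7, 30.6 and 28.2 TPM in controls. Its NaHS values were below all controls early and above all controls late. Only MRPL25, MRP49 and MRPS35 were called in every alternative in which they could be tested, and with median-ratio scaling, which moved the all-gene median to 0.0050, they were the only 3 called. With upper-quartile scaling MRP1 was called beside them. Over all genes, 488 of 5162 had a higher late effect with median-ratio scaling and 510 of 5168 with upper-quartile scaling. Without early control 1, 2 or 3 the count was 4 each, without late NaHS library 1 it was 4, and without late control 3 it was 5. The all-gene counts of higher late effects in these fits were 529, 536, 527, 703 and 607. Without late NaHS library 2, 1 gene, MRPS16, had a lower effect late.

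Of the 60 genes without a 0 in the late table, 52 were higher with NaHS late by their fitted change. Among these 52, 32 were lower and 20 higher early, while 7 of the 60 were lower at both stages and 1, MRP8, was lower late and higher early. The late change exceeded the early one for 47 of the 60. Over all genes tested, 2868 of 5344 were higher with NaHS late, and the late change exceeded the early one for 3266 of 5165. Both counts are thus to be read beside a shift of all genes. RSM18 and MRPL24, which rose early, had late changes of 0.71 and 0.49 that did not pass (limma adjusted p = 0.0647 and 0.129), although all late NaHS values of both genes lay above all late controls. RSM7, which fell early, had a late change of -0.12 with overlapping groups.

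**Figure D5:**
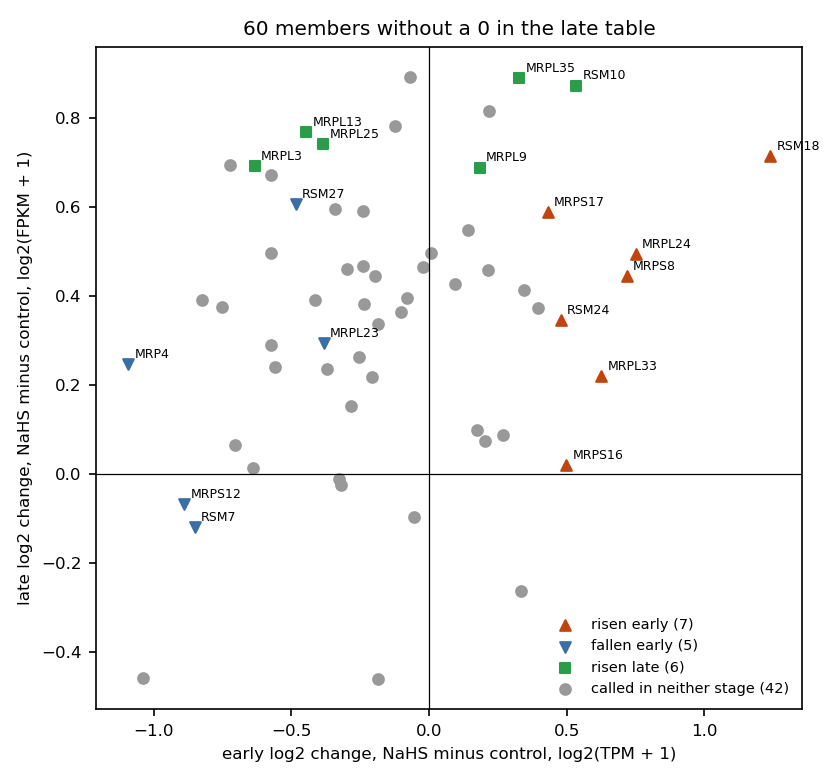
Early (horizontal, log2(TPM + 1)) and late (vertical, log2(FPKM + 1)) changes, NaHS minus control, of the 60 genes without a 0 in the late table; marks show genes risen early (7), fallen early (5), risen late (6) and called in neither stage (42). Most points, 52 of 60, lie above the horizontal line, on both sides of the vertical one. Over all genes tested late, 2868 of 5344 had a change above 0.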

How the data were processed

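Total RNA was isolated with TRIzol, freed of DNA and made into TruSeq libraries, and pairs were read on a NovaSeq instrument, per the labels' protocols. Reads were trimmed with SeqPrep and Sickle and aligned with TopHat, per the labels' protocols, and Bowtie 0.12.2 and R64 are named in the submitters' processing notes. Which program and gene models gave the values, and whether strand was used, is not given in the sources used, so values of overlapping genes are uncertain. The authors deposited a table for each stage. The early values are TPM, a unit read from the deposited column totals, and the late values are FPKM per the file headers. No read counts were analysed here, so depth is unknown and no counting interval is given.

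Entries without a gene name (319 early, 429 late) were left out of the tests. Each table was fitted with limma 3.58.1 in R 4.3.3 on log2(value + 1), which understates changes of low genes, for genes with a mean of at least 1 (moderated test with a trend, 2-sided), with Benjamini-Hochberg adjusted p over all tested genes and a threshold of 0.05. The difference between stages came from the interaction of stage and treatment in a fit of all 12 libraries. A 2-sided exact permutation of 3 against 3 libraries cannot reach 0.05. Symbols, positions and sequences came from RefSeq R64, to which 6048 identifiers matched. Genes were named by rule: up to 8 called genes without overlap per stage and direction, the 5 largest differences between stages, the 3 highest and 3 lowest levels of each table, genes at 0 throughout the late table, MRP8, RSM22, and up to 2 called genes of each list and direction, with PUF3 and HAP4. Genes outside it are marked as such. The alternatives were pseudocounts of 0.1 and 5, no filter, a mean of at least 10, genes with a 0 left out, median-ratio and upper-quartile scaling, a replicate block and each library left out. The members, lists and tests were chosen with earlier results of these data known. The fits were tested on simulated data.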

Additional observations from a re-analysis of the deposited data

Results flagged for a closer look

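The effect of NaHS differed between the stages for 11 of the 63 genes tested, by the interaction of stage and treatment (limma, adjusted over 5165 genes), and for all 11 the late effect was the higher. This is 17.5% of the 63, near the 15.2% of all genes tested, and with median-ratio scaling 3 of the 11 were called. With that scaling 488 of all 5162 genes tested had a higher late effect. The late minus early effect on the log2 scale was 1.33 for MRPL3, 1.25 for MRP1, 1.21 for MRPL13, 1.13 for MRPL25, 1.09 for RSM27, 0.96 for MRPS5, 0.91 for MRPL40, 0.68 for MRPL23 and 0.64 for MRPL16. It was fitted at 4.76 for MRP49 and 3.51 for MRPS35, both of which have a 0 in a late control, so that these values depend on the pseudocount (3.10 to 6.48 and 1.94 to 5.58 over the alternatives). RSM27 and MRPL23 had fallen early, MRP49, MRPS35, MRPL3, MRPL13 and MRPL25 rose late, and the other 4 were called at neither stage alone. Early NaHS library 3 was low for most of these genes: without it, 10 genes were called, 9 of them among the 11. Over all genes, 766 of 5161 had a higher late effect in that fit. What lies behind the differences was not tested.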

How the results depend on the processing

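The fitted changes of named genes that had passed kept their sign in all 387 recomputed values. Among named genes that had not passed, RSM19 at both stages and MRPS12 late changed sign in 8 of 137 values. Of all these values 412 kept their side of the threshold, 111 no longer passed and 1 newly passed. Early, the replicate block gave 5 risen and 3 fallen genes, median-ratio scaling 14 and 1, and upper-quartile scaling 19 and 1 with a median of 0.17. Over all genes tested the same settings gave 424 and 1436, 1067 and 1122, and 1207 and 939. Leaving out 1 library gave 3 to 17 risen and 1 to 12 fallen, the highest of both without NaHS library 3, and medians between -0.25 and -0.0050. The all-gene counts then ran from 296 to 936 risen and from 1093 to 2317 fallen. Late, the block gave 2 risen genes, and leaving out 1 library 2 to 7. Over all genes tested the block gave 139 risen late, and leaving out 1 library 123 to 291. For the difference between stages the block gave 5 genes with a higher late effect, median-ratio scaling 3, upper-quartile scaling 4, and leaving out 1 library 4 to 13, with 0 to 1 lower. The all-gene counts of higher late effects were 565, 488, 510 and 527 to 895. The fits without a library have fewer samples; for the rest the cause was not tested. The replicate numbers did not pair the libraries: same-numbered deviations correlated at -0.035, -0.011 and -0.028 early and at -0.11, 0.086 and 0.041 late, and libraries did not each correlate best with their own number. A mean of at least 10 left RSM22 untested early and MRPS35, MRP35 and MRPL24 late, and leaving out genes with a 0 removed MRP49, MRPS35 and MRP35. With depth unknown and 3 libraries a group, genes near the threshold are uncertain.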
